A study of Homo sapiens with 20 samples.

Results

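Contacts of poised enhancers in primed H9 cells were set against those in naive HNES1 cells, and each difference was then looked up in HNES1 cells at day 14 of their transition. The members were pairs of fragments on the same chromosome with an interaction score of 5 or more in H9 or in naive cells. There were 40740 such contacts among 182303 contacts listed within chromosomes and 766138 listed in all. A contact was gained when it was called in H9 and not in naive cells, lost when it was called in naive and not in H9 cells, and kept when it was called in both. H9 cells gained 22468 contacts (12.3% of those listed within chromosomes), lost 16976 (9.31%) and kept 1296 (0.711%).

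The assay was Poised Enhancer Capture Hi-C, in which crosslinked chromatin is cut with DpnII and ligated, and the ligation products of captured fragments, called baits, are enriched with RNA probes. H9 is a primed human embryonic stem cell line, grown without feeder cells in mTeSR-E8 on Geltrex. Day 14 cells were HNES1 cells carried from the naive state into N2B27 with the tankyrase inhibitor XAV939, a state that the labels call primed. Naive cells were HNES1, a human embryonic stem cell line kept on mouse embryonic fibroblast feeders in N2B27 with PD0325901, human LIF, Gö6983 and XAV939, at day 0. The labels name no genetic modification of either line. H9 therefore differed from naive cells in line, medium and substrate as well as in state, and these cannot be told apart. Day 14 and naive cells shared the line and XAV939, and Geltrex was used in all 3 groups. The file held 1 score column per condition, in which both libraries were pooled, so replicate error was unknown and conditions were compared without a test. Contact scores carry no expression, so the labelled cell states could not be checked against marker genes.

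Poised enhancers are distal regulatory elements that are accessible in pluripotent cells but carry the repressive histone mark of Polycomb complexes in place of activating acetylation. Many lie near genes for developmental transcription factors, and Polycomb complexes bound at both places are known to hold such regions together in the nucleus. Human naive pluripotency resembles the epiblast before implantation, and primed pluripotency the epiblast after it.

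The promoters below are shown because contacts were counted at their start sites. The promoters of HOXA2, PRAC1, MEIS2 and HAND2 were reached from distal baits in H9 cells. HOXA2 patterns the hindbrain, PRAC1 lies beside HOXB13, MEIS2 is a homeobox partner of HOX proteins, and HAND2 acts in heart and limb. SUFU, an inhibitor of Hedgehog signalling, and SMYD2, a lysine methyltransferase, lay at baits whose contacts were lost. Each run is 300 bases of RefSeq sequence on GRCh38.p14, read 5′ to 3′ on the gene's strand, from 250 bases before the start site to 50 after it. Capitals mark CG dinucleotides.
HOXA2 promoter, chr7:27102634-27102933, minus strand: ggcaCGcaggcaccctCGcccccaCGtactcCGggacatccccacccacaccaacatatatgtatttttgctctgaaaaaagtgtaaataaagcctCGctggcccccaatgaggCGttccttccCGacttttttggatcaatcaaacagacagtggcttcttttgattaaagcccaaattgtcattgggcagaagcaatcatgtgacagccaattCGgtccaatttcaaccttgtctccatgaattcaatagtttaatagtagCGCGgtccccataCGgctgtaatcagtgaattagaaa
PRAC1 promoter, chr17:48722469-48722768, minus strand: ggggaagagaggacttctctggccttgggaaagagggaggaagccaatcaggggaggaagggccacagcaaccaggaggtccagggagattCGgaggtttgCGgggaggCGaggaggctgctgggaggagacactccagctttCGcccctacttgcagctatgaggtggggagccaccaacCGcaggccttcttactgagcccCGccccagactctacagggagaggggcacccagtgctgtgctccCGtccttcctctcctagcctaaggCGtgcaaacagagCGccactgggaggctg
MEIS2 promoter, chr15:37099057-37099356, minus strand: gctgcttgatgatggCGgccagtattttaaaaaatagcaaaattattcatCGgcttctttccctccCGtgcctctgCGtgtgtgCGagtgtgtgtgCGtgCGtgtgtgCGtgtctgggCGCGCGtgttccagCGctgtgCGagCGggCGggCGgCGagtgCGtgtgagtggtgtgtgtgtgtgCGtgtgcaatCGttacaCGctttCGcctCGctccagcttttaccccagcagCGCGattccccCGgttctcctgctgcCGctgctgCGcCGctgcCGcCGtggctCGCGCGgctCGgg
HAND2 promoter, chr4:173530180-173530479, minus strand: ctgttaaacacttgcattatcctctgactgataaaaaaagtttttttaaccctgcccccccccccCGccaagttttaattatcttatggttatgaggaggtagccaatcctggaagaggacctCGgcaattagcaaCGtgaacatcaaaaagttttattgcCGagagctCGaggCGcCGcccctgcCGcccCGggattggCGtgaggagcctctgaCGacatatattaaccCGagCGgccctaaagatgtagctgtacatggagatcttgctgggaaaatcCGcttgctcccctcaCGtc
SUFU promoter, chr10:102503722-102504021, plus strand: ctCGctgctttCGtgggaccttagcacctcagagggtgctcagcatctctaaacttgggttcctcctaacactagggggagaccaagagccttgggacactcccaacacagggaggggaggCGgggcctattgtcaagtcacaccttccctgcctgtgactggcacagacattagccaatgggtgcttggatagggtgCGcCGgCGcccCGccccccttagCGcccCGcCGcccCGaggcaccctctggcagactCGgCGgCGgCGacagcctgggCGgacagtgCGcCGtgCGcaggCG
SMYD2 promoter, chr1:214280909-214281208, plus strand: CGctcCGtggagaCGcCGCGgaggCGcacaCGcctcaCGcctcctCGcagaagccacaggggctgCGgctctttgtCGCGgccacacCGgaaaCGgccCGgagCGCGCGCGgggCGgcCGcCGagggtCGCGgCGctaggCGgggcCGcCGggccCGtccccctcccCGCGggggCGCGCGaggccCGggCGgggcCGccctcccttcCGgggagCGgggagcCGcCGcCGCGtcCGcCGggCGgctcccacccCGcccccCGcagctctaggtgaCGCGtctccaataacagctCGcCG

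The start site of HOXA2 had 16 called contacts in H9, 16 at day 14 and 1 in naive cells, and it was the other end of 14, 10 and 1 of them. PRAC1 had 14 contacts at its start site in H9, 4 at day 14 and 0 in naive cells, in each case as the other end. MEIS2 had 10 in H9, 5 at day 14 and 2 in naive cells, and HAND2 had 8 in H9, 3 at day 14 and 0 in naive cells, all of them as the other end. SUFU had 0 in H9, 3 at day 14 and 10 in naive cells, and SMYD2 had 0 in H9, 1 at day 14 and 9 in naive cells, none of them as the other end. The printed stretches held 11 CG in HOXA2, 9 in PRAC1, 35 in MEIS2, 15 in HAND2, 20 in SUFU and 52 in SMYD2. CpG-rich promoters, with a GC content of 50% or more and an observed over expected CpG ratio of 0.6 or more, made up 63.4% of the 15767 promoters in the table. Among promoters at the other end of gained and not lost contacts the share was 64.2% (95% Wilson interval 60.9 to 67.5%, n = 808), and among those of lost and not gained contacts 60.5% (56.0 to 64.8%, n = 476). At the bait end the shares were 79.4% (76.2 to 82.3%, n = 665) and 83.0% (79.4 to 86.0%, n = 487), against 81.9% (80.4 to 83.2%, n = 2917) for promoters at the bait of any listed contact. The share at the other end of any listed contact was 63.9% (n = 4672). Each of the 4 intervals held the share of all listed contacts at the same end. A smaller set did not: promoters at the other end of 2 or more lost and no gained contacts had 47.9% (34.5 to 61.7%, n = 48). Those at the other end of 2 or more gained and no lost contacts had 62.6% (54.1 to 70.4%, n = 131), an interval that held it. The cause was not tested.

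Few of the contacts gained in H9 cells were also called at day 14. Day 14 cells called 1359 of the 22468 gained contacts, which is 6.05% (5.74 to 6.37%), against 11.2% of all contacts listed within chromosomes. That background includes contacts listed because day 14 itself called them. Of the 16976 lost contacts, day 14 cells still called 840, or 4.95% (4.63 to 5.28%), so that 16136 were below 5 in day 14 cells too. Kept contacts were called at day 14 in 403 cases, or 31.1% (28.6 to 33.7%). All intervals on shares cover counting error only. Day 14 and H9 were both set against the same naive column, so the 2 comparisons are not independent of each other.

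Gained contacts had a median score of 5.76 in H9, 1.03 at day 14 and 0.86 in naive cells, as the class definition requires for H9 and naive cells. Lost contacts had medians of 0.92 in H9, 0.94 at day 14 and 5.66 in naive cells. Kept contacts had medians of 6.58 in H9, 3.46 at day 14 and 6.44 in naive cells. The day 14 medians of gained and lost contacts were thus close to those of the condition in which the contact was not called. The naive score was exactly 0 for 9571 gained contacts (42.6%) and between 3 and 5 for 2535 (11.3%). The H9 score was 0 for 6341 lost contacts (37.4%) and between 3 and 5 for 2156 (12.7%). At the threshold, the weakest gained contact scored 5.0001 in H9, and the highest naive score among gained contacts was 4.9989. The weakest lost contact scored 5.0002 in naive cells, and the highest H9 score among lost contacts rounded to 5.0000 from below.

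The share called at day 14 was larger for stronger contacts. Among gained contacts it was 4.15% at H9 scores of 5 to 6 (n = 13306), 7.05% at 6 to 8 (n = 7319), 12.9% at 8 to 10 (n = 1388), 22.5% at 10 to 15 (n = 427) and 57.1% at 15 or more (n = 28). Among lost contacts, binned by naive score, it was 3.47%, 6.28%, 11.8%, 22.2% and 71.4% (n = 10793, 5193, 798, 185 and 7). Kept contacts, binned by the higher of both scores, had 15.7%, 22.8%, 34.0%, 51.3% and 88.7% (n = 204, 561, 285, 193 and 53). Gained and lost contacts followed each other closely from bin to bin, and kept contacts were called more often at day 14 in every bin. Since most gained and lost contacts lay in the lowest bin, the pooled shares mainly describe contacts near the threshold.

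**Figure D1:**
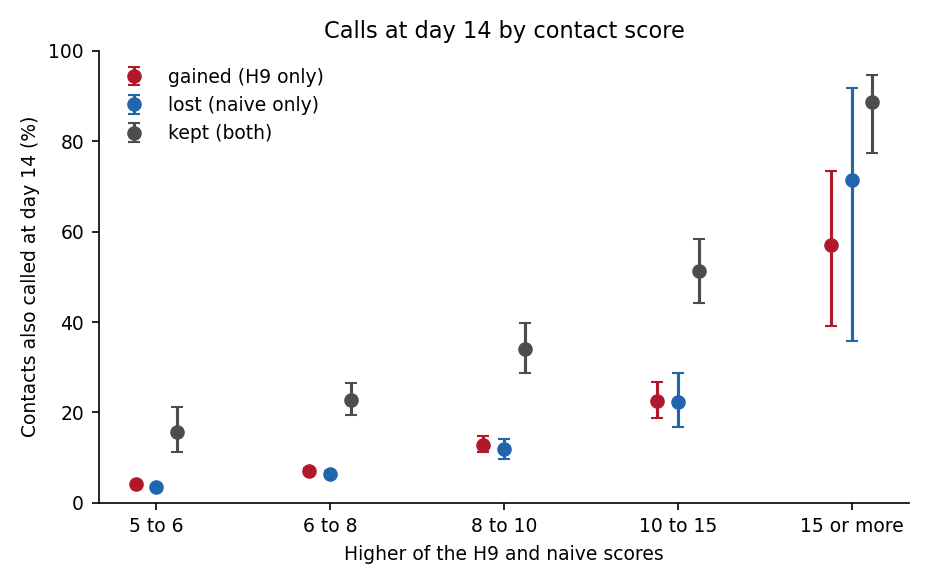
Share of contacts called at day 14 (percent, vertical axis) by the score that defined the contact (5 bins, horizontal axis), for gained, lost and kept contacts, with 95% Wilson intervals that cover counting error only. Gained and lost contacts run from 4.15% and 3.47% in the lowest bin to 57.1% and 71.4% in the highest, the highest lost bin holding 7 contacts.

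The other conditions called gained and lost contacts at similar rates to day 14. On day 1 of the transition 4.25% of gained contacts were called, on day 3 5.47%, on day 5 5.46%, on day 7 4.70% and on day 10 4.80%. The corresponding shares of lost contacts were 4.83%, 5.86%, 4.56%, 4.26% and 4.79%. In neuroectoderm and definitive endoderm, both made from day 14 cells, 8.89% and 8.20% of gained contacts were called, and 7.40% and 6.39% of lost contacts. Those 2 conditions also called more contacts in all (32672 and 29563) than day 14 (20498). Gained contacts exceeded lost ones in the share called at day 14, while at days 1 and 3 they were below them. At a score of 10 or more the order at day 14 turned, with 6.81% of gained and 8.48% of lost contacts called.

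The shared part was larger when neighbouring fragments were counted as well. A day 14 contact of the same bait within 10 kb of the other end was found for 17.0% of gained, 13.6% of lost and 56.4% of kept contacts. Within 50 kb the shares were 32.3%, 27.9% and 72.1%. The condition that lacked the exact contact also had neighbouring calls. A naive contact lay that near for 10.2% of gained contacts within 10 kb and 25.3% within 50 kb. For lost contacts, an H9 contact lay that near in 11.8% and 28.0%. Part of the larger shares at day 14 was thus seen in those conditions too. Gained contacts between 2 baits were called at day 14 in 18 of 426 cases on the exact fragments, or 4.23%, and in 133 cases, or 31.2%, within 10 kb. A naive contact lay within 10 kb for 56 of them, or 13.1%. Shares also varied with distance. Day 14 called 10.2% of gained and 8.12% of lost contacts shorter than 50 kb, and 2.47% and 1.30% of those between 500 kb and 1 Mb.

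Gained contacts were somewhat more frequent relative to lost ones at short range and between baits. The median distance was 224.2 kb for gained, 227.6 kb for lost and 185.6 kb for kept contacts. There were 1.32 gained contacts per lost contact over all distances, but 2.08 below 50 kb (1227 gained and 591 lost), against 1.28 from 50 to 100 kb, 1.31 from 100 to 250 kb, 1.26 from 250 to 500 kb and 1.42 from 500 kb to 1 Mb. With the same number of top-scoring contacts taken in each condition the ratio was 1.00 by construction over all and 1.53 below 50 kb. Contacts between 2 baits made up 426 of the gained (1.90%, 1.73 to 2.08%), 122 of the lost (0.719%, 0.602 to 0.857%) and 8 of the kept contacts. Bait pairs can be listed once from each bait, and the gained ones came from 322 distinct pairs, the lost ones from 94. At equal numbers the gained over lost ratio of bait pairs was 2.65.

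The differences were spread over many baits, a few per bait. Among 16627 baits with a call in either condition, 8290 had more contacts in H9 cells, 5910 had more in naive cells and 2427 had equal numbers. Of these, 5920 baits had contacts in H9 and 0 in naive cells, and 4327 had contacts in naive and 0 in H9 cells. A difference of 5 or more contacts was seen at 313 baits in the direction of H9 and at 79 in that of naive cells.

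The 4 HOX clusters, arrays of homeobox genes that specify position along the body axis, had many internal contacts in H9 and few in naive cells. In HOXB (chr17:48528526-48728750, 50 baits), 58 pairs with both ends inside the cluster were called in H9, 30 at day 14 and 0 in naive cells. In HOXA (chr7:27092993-27200091, 32 baits) the numbers were 49 in H9, 47 at day 14 and 3 in naive cells. In HOXC (chr12:53938831-54056030, 38 baits) they were 49 in H9, 39 at day 14 and 6 in naive cells, and in HOXD (chr2:176087487-176190907, 37 baits) 18 in H9, 21 at day 14 and 0 in naive cells. Each pair is counted once here, from whichever bait it was listed. The counts in H9 and day 14 cells were thus high in all 4 clusters, and the naive counts did not come near them in any.

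The naive scores of the pairs called in H9 lay mostly well below the threshold. Gained contacts are below 5 in naive cells by definition, and over all of them the naive median was 0.86. The naive medians of the HOX pairs lay on both sides of that value. Among the 58 HOXB pairs called in H9 the median score was 6.17 in H9, 2.52 at day 14 and 0.83 in naive cells, the highest naive score was 3.63, and 15 pairs were at 0 in naive cells. The 49 HOXA pairs had medians of 6.68 in H9, 3.82 at day 14 and 1.18 in naive cells, the 49 HOXC pairs 6.57, 3.19 and 2.02, and the 18 HOXD pairs 6.12, 3.12 and 0.73. At a score of 3 or more, HOXB had 74 pairs in H9, 55 at day 14 and 5 in naive cells. HOXA then had 84, 85 and 14, HOXC 78, 77 and 25, and HOXD 28, 29 and 2 in the same order. When every condition was cut to an equal number of calls, the internal pairs were 49 in H9, 28 at day 14 and 0 in naive cells for HOXB, and 42, 42 and 3 for HOXA. For HOXC they were 39, 32 and 6, and for HOXD 15, 19 and 0.

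Part of the gained internal HOX pairs were called at day 14 on the same fragments. Their share was above the 6.05% of all gained contacts, but not above that of all listed internal pairs. Of the 48 internal HOXA pairs gained in H9, day 14 called 18. Of 58 gained in HOXB it called 10, of 46 gained in HOXC 9, and of 18 gained in HOXD 5. Over all listed internal pairs, day 14 called 47 of 125 in HOXA and 30 of 106 in HOXB. In HOXC it called 39 of 132 and in HOXD 21 of 47. These listed pairs include those listed because day 14 itself called them. HOXB stood lowest among the 4 in the number of day 14 pairs relative to H9. Contacts between a HOX cluster and the outside differed less. HOXA had 77 such pairs in H9, 59 at day 14 and 45 in naive cells, HOXB 117, 79 and 62, HOXC 131, 109 and 94, and HOXD 72, 45 and 38.

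**Figure D2:**
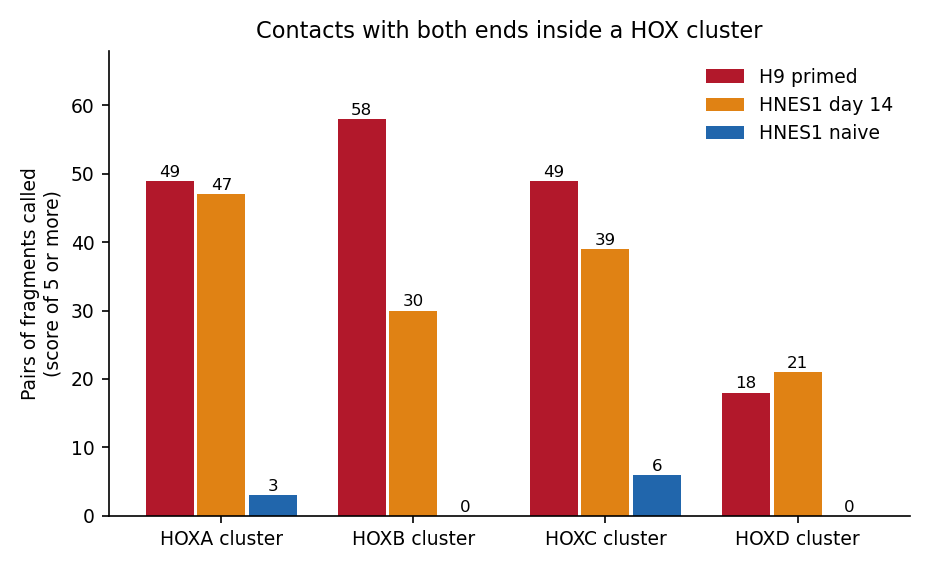
Number of called pairs in H9, day 14 and naive cells (bars, left to right) for HOXA, HOXB, HOXC and HOXD with both ends inside the cluster (vertical axis, number of pairs at a score of 5 or more). They number 18 to 58 in H9, 21 to 47 at day 14 and 0 to 6 in naive cells.

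**Figure D3:**
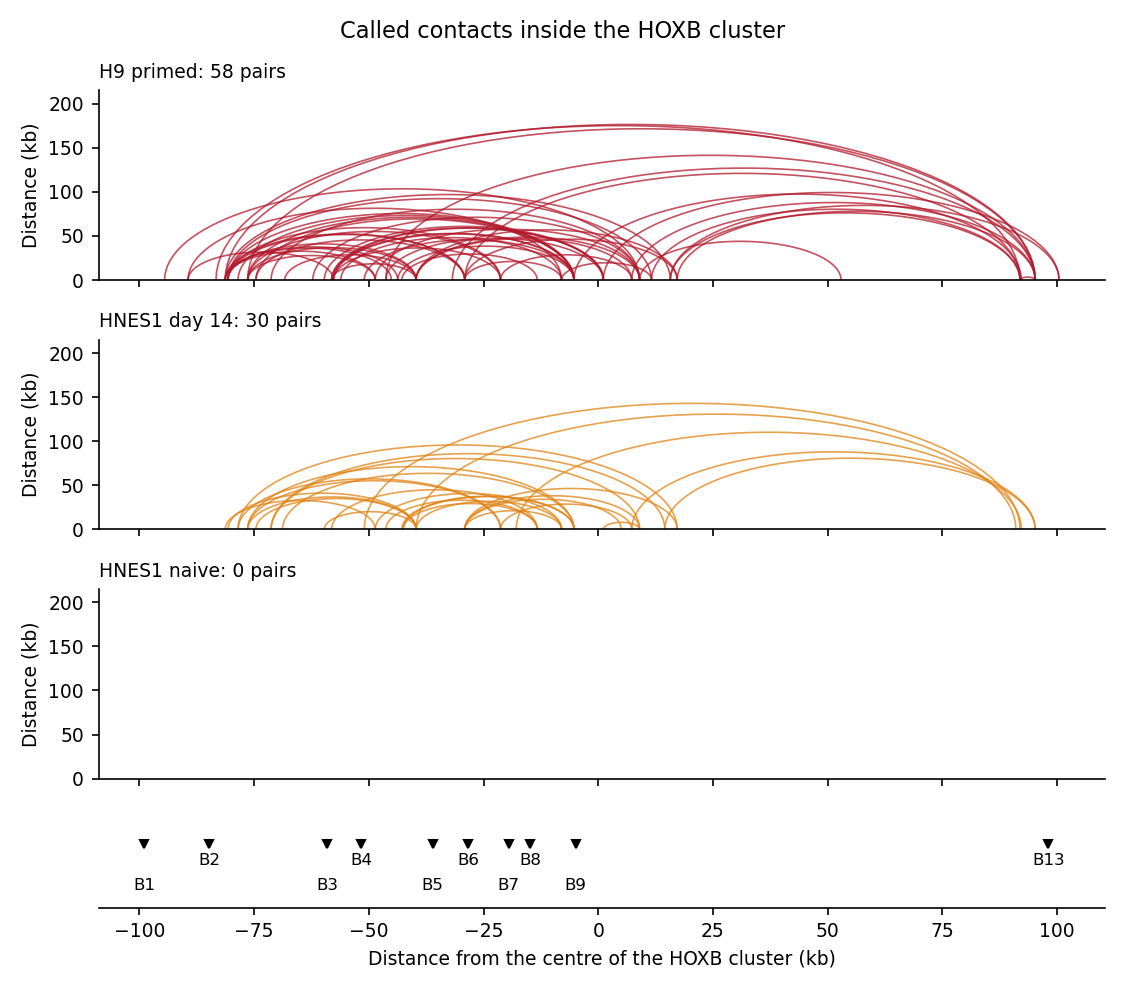
Called contacts with both ends inside the HOXB cluster as arcs in H9 (58 pairs), day 14 (30 pairs) and naive cells (0 pairs), from top to bottom, by distance in kb from the centre of the cluster (horizontal axis) and length in kb (vertical axis), with the HOX genes marked below. In H9 the arcs join most parts of the cluster, at day 14 fewer do, and the naive panel is empty.

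The strongest gained contacts of HOXB genes, picked by their H9 scores, were below the threshold at day 14. Those of HOXB9 and HOXB3 had an end beyond the cluster. That of PRAC1 and HOXB13 was internal, a class in which day 14 called 10 of the 58 gained pairs. The strongest contact gained in H9 at HOXB9, a posterior HOX gene, joined a bait at chr17:48754561-48755887 to chr17:48627220-48632347, 125 kb away, with scores of 9.91 in H9, 0.74 at day 14 and 1.98 in naive cells. For HOXB3, an anterior member, it joined chr17:48547601-48548178 to chr17:48730518-48735742, 185 kb away, with 13.16 in H9, 2.83 at day 14 and 0 in naive cells. The strongest at PRAC1 and HOXB13 was the same contact, from a bait at chr17:48645255-48646448 over 78 kb, with 11.68 in H9, 1.36 at day 14 and 2.29 in naive cells. Of these, the contact of HOXB9 was lowest at day 14 and the others had low scores in both HNES1 conditions.

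Genes were linked to a contact when an annotated end of a protein-coding gene lay within 1 kb of either fragment. Of 11292 linked genes, 3080 (27.3%) had more contacts in H9 than in naive cells, 1988 (17.6%) had fewer and 6224 had the same number. H9 also had more calls in all (23764) than naive cells (18272). At equal numbers of calls 2374 genes had more and 2275 fewer contacts in H9. On quantile-normalised scores the numbers were 2462 and 2332, so the excess of genes with more contacts was then small. At day 14, 2778 genes (24.6%) had more contacts than in naive cells and 2140 (19.0%) had fewer. The mean per linked gene was 0.816 in H9, 0.717 at day 14 and 0.586 in naive cells, and the median change from naive to H9 cells was 0. A contact can link several neighbouring genes, so members of a gene cluster are not separate observations.

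The 12 genes with the largest net gain were HOX genes, genes beside HOX clusters and other regulators of development. HOXB9 had 32 contacts in H9, 11 at day 14 and 3 in naive cells. HOXA3, an anterior HOX gene, had 25 in H9, 19 at day 14 and 1 in naive cells. Naive counts below those of H9 follow from the way these genes were chosen. Their contacts also include pairs already counted inside the HOX clusters. Day 14 cells were nearer to H9 for HOXA3 than for HOXB9.

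ISL1, a LIM homeobox gene of motor neurons and heart progenitors, had 26 contacts in H9, 23 at day 14 and 5 in naive cells. Its strongest gained contact ran 413 kb from a bait at chr5:51382520-51383509 to chr5:50967151-50972202, with scores of 14.74 in H9, 3.20 at day 14 and 1.52 in naive cells. OTP, a homeobox gene of the hypothalamus, had 18 contacts in H9, 14 at day 14 and 1 in naive cells. FZD7, a Wnt receptor, had 21 in H9, 10 at day 14 and 4 in naive cells, and CNPY1, known in zebrafish as a regulator of FGF signalling, had 19 in H9, 3 at day 14 and 1 in naive cells. For CNPY1 the day 14 count lay near the naive one, and for ISL1 and OTP near that of H9.

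Also in this group were PRAC1 with 21 contacts in H9, 8 at day 14 and 2 in naive cells, HOXB3 with 19, 12 and 3, HOXA2 with 19, 18 and 4, HOXB13 with 17, 12 and 2, and ZNF385A, a zinc finger gene beside HOXC, with 24, 31 and 10. The gained contacts came from many baits at the HOX genes, such as 21 baits for 32 contacts of HOXB9 and 21 baits for 24 contacts of HOXA3. All 20 gained contacts of FZD7 came from 1 bait, and 14 of 20 at ZNF385A did. Without the 6 baits of 20 or more contacts, of which the FZD7 bait was 1, the net change of FZD7 was 0.

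The exact contacts were shared with day 14 to unequal extents, against 6.05% over all gained contacts. Day 14 called 3 of the 32 gained contacts of HOXB9, 9 of 24 for HOXA3, 5 of 24 for ISL1 and 0 of 18 for CNPY1. It called 8 of 20 for ZNF385A. The counts of HOXA3, ISL1 and ZNF385A were above that overall share, although ISL1, with 23 contacts at day 14 in all, had most of them on other fragments than H9.

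The 12 genes with the largest net loss had smaller differences and came from fewer baits. SUFU and its divergent neighbour ACTR1A, a component of dynactin, shared 1 bait at chr10:102503326-102505426 that lost 10 contacts. SUFU had 0 contacts in H9, 3 at day 14 and 10 in naive cells, and ACTR1A had 2 in H9, 3 at day 14 and 11 in naive cells. The strongest of the lost contacts, at 97 kb, had 2.65 in H9, 0.49 at day 14 and 9.82 in naive cells. Day 14 counts were therefore nearer those of H9 at this bait.

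NEK5, a kinase gene of the NIMA family, had 7 contacts in H9, 11 at day 14 and 16 in naive cells, and all 13 of its lost contacts came from 1 bait. MET, the hepatocyte growth factor receptor, had 4 in H9, 9 at day 14 and 13 in naive cells. Its strongest lost contact, at 137 kb, scored 0.93 in H9, 7.46 at day 14 and 9.62 in naive cells, so that day 14 cells kept it. SLC35A3, a sugar nucleotide transporter gene of the Golgi, had 4 in H9, 4 at day 14 and 13 in naive cells, with all 12 lost contacts from 1 bait. SMYD2 had 0 in H9, 2 at day 14 and 9 in naive cells. LEF1, a transcription factor of Wnt signalling, had 0 in H9, 2 at day 14 and 7 in naive cells. For SLC35A3, SMYD2 and LEF1 the day 14 count was at or near that of H9, and for MET and NEK5 it lay between the others.

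GXYLT1, a glycosyltransferase gene, had 2 contacts in H9, 3 at day 14 and 9 in naive cells, and MT1G, a metallothionein gene, had 1, 0 and 8. KIAA1549 had 0, 2 and 7, and NLN, which encodes the peptidase neurolysin, had 0, 1 and 7. NBPF1, of a family of near-identical duplicated genes, differed from the others, with 13 in H9, 30 at day 14 and 21 in naive cells. Of its 20 lost contacts, day 14 called 12, and counts at such near-identical copies are uncertain.

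**Figure D4:**
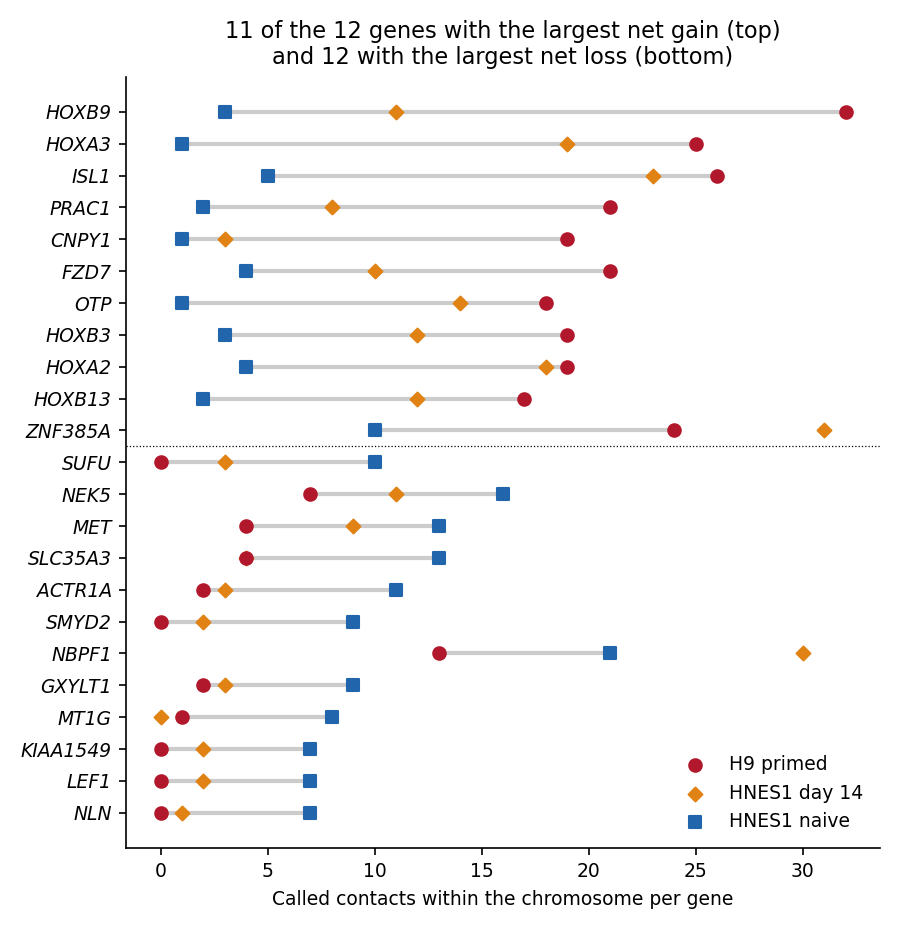
Number of called contacts per gene (horizontal axis) in H9, day 14 and naive cells (points) for 11 of the 12 genes with the largest net gain and the 12 with the largest net loss in H9. Gains reach 29 contacts more for HOXB9 (32 against 3), losses at most 10 fewer for SUFU (0 against 10), and the day 14 point of SLC35A3 lies under that of H9 at 4.

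Gains and losses differed in how they were built up. A net gain of 5 or more contacts was found for 158 genes, with a median of 8.0 contacts in H9, 4.0 at day 14 and 1.0 in naive cells. Their gained contacts came from a median of 4.0 baits, and 19 genes had them from 1 bait. In 52 genes at least 50% of all contacts called in H9 had the gene at the other end. A net loss of 5 or more was found for 40 genes, with medians of 1.0 in H9, 3.0 at day 14 and 7.0 in naive cells. Their lost contacts came from a median of 2.5 baits, and 8 genes had them from 1 bait. In 2 genes at least 50% of all contacts called in naive cells had the gene at the other end. Day 14 also had more contacts than naive cells for 125 of the 158 genes, fewer for 12 and the same number for 21. It had fewer than naive cells for 37 of the 40 genes with a net loss and more for 3. These genes were chosen on the naive column that both comparisons use.

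By gene list, HOX genes stood highest. Of 39 linked HOX genes, 36 had more contacts in H9 than in naive cells, 2 had fewer and 1 the same number, with a median difference of 6, against 27.3%, 17.6% and a median of 0 over all linked genes. The mean per HOX gene was 10.9 in H9, 8.33 at day 14 and 3.1 in naive cells. Over all linked genes it was 0.816 in H9 and 0.586 in naive cells. List counts were not scaled to the number of baits or contacts per gene, so genes with many contacts had more room to differ. Counted at the other end only, the means were 6.51 in H9, 4 at day 14 and 1.03 in naive cells. HOX-linked and ParaHox homeobox genes had more in H9 for 11 of 15 and fewer for 2, with a median difference of 3. Among them CDX2, a ParaHox gene of hindgut and trophectoderm, had 10 contacts in H9, 10 at day 14 and 2 in naive cells, and GSX1 had 9, 4 and 2.

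Neuroectoderm and forebrain genes followed, with more contacts in H9 for 32 of 46 linked genes and fewer for 4 (median difference 1). MEIS2 had 19 contacts in H9, 15 at day 14 and 5 in naive cells. SIX6, a homeobox gene of eye and hypothalamus, had 15 in H9, 20 at day 14 and 2 in naive cells, and NKX2-1, of thyroid, lung and ventral forebrain, had 7, 12 and 0. Mesoderm and muscle genes had more in H9 for 18 of 32 and fewer for 6 (median 1), and proneural bHLH genes had more for 9 of 16 and fewer for 3 (median 1). The proneural mean difference was 0.5, and on quantile-normalised scores it turned to -0.0625. PAX2, a kidney and midbrain regulator, had 12 in H9, 5 at day 14 and 0 in naive cells, and its strongest contact, at 96 kb, scored 11.34 in H9, 0.70 at day 14 and 2.17 in naive cells. SIX6 and NKX2-1 had more contacts at day 14 than in H9, PAX2 fewer.

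The definitive endoderm, neural crest and trophectoderm and amnion lists had a median difference of 0, as all linked genes did. Among the proneural genes NEUROD1, a factor of neuronal and endocrine differentiation, had 0 contacts in H9, 0 at day 14 and 5 in naive cells. Its strongest lost contact, at 877 kb, scored 0 in H9, 0 at day 14 and 6.93 in naive cells. Definitive endoderm genes had more for 6 of 17 and fewer for 4, SOX17 having 9 in H9, 10 at day 14 and 3 in naive cells. Neural crest genes had more for 8 of 17 and fewer for 3. NR2F2, a nuclear receptor gene, had 4 in H9, 3 at day 14 and 1 in naive cells. Trophectoderm and amnion genes had more for 5 of 13 and fewer for 4.

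The 3 pluripotency lists lay on both sides of the mean over all linked genes (0.816 in H9, 0.717 at day 14 and 0.586 in naive cells). General pluripotency genes were below it, with means of 0.2 contacts in H9, 0.2 at day 14 and 0.4 in naive cells over 5 genes. NANOG and POU5F1, core factors of the pluripotency network, each had 0 in H9, 0 at day 14 and 1 in naive cells. The POU5F1 contact, at 9 kb, scored 2.28 in H9, 2.30 at day 14 and 6.17 in naive cells. Naive pluripotency genes had means of 1.17 in H9, 0.833 at day 14 and 0.833 in naive cells over 6 genes, and the mean difference between H9 and naive cells was -0.167 at equal numbers of calls. Primed pluripotency genes had 3.18, 1.73 and 1.09 over 11 genes, of which 4 had more in H9, 0 had fewer, and FZD7, with its 1 bait, supplied most of the difference.

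Over all linked genes 27.3% had more and 17.6% fewer contacts in H9. Polycomb complex genes had more contacts in H9 for 9 of 21 and fewer for 3, and CBX2, a chromodomain subunit, had 11 in H9, 6 at day 14 and 6 in naive cells. Signalling ligands and receptors had more for 27 of 58 and fewer for 8, and WNT8B had 6 in H9, 2 at day 14 and 0 in naive cells. Housekeeping genes had means of 0.333 in H9, 0.133 at day 14 and 0.133 in naive cells over 15 genes, with more in H9 for 4 and fewer for 2. Median differences were 0 for each of these 3 lists, and the housekeeping share with more contacts was close to that over all genes.

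The excess of gained over lost contacts was not limited to HOX loci. Contacts touching a HOX cluster numbered 524 gained, 194 lost and 55 kept, a ratio of 2.70. Contacts of developmental list genes outside the HOX clusters numbered 604 gained and 275 lost, a ratio of 2.20. The ratio was 1.30 for contacts of other genes and 1.29 for contacts with no linked gene. Below 50 kb the developmental genes had 67 gained and 4 lost contacts and the HOX clusters 97 and 6. At equal numbers of calls the HOX ratio was 2.21 and that of the other developmental genes 1.70. Day 14 called 9.44% of the gained and 3.64% of the lost contacts of these developmental genes, against 6.05% and 4.95% over all contacts. At the HOX clusters it called 16.8% of the gained and 14.9% of the lost contacts.

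Along the genome, 1283 of 2314 windows of 1 Mb (55.4%) had more gained than lost contacts and 787 (34.0%) had more lost than gained. The largest net gains lay at developmental loci. Windows were ranked by raw counts, which were not scaled to the number of baits or to the calls per condition. The ranking used the naive column. It therefore favours windows low in naive cells among the gains and high in naive cells among the losses, whatever day 14 shows. The 8 windows of largest net gain held 45 to 106 baits each. The window at 48 to 49 Mb of chromosome 17, with HOXB, had 203 gained, 91 lost and 19 kept contacts, and in all 222 calls in H9, 149 at day 14 and 110 in naive cells. The window at 155 to 156 Mb of chromosome 7, with CNPY1, EN2 and SHH, had 128 calls in H9, 61 at day 14 and 31 in naive cells. EN2, a midbrain and hindbrain homeobox gene, had 5 contacts in H9, 0 at day 14 and 0 in naive cells, and SHH, the Hedgehog ligand, had 6, 2 and 1. Day 14 cells lay between the others in both windows.

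The FOXD1 window on chromosome 5 had 112 calls in H9, 96 at day 14 and 35 in naive cells. The window with FOXD2 and FOXE3 on chromosome 1 had 132, 104 and 62, and that with FOXF1, FOXC2 and FOXL1 on chromosome 16 had 97, 69 and 37. These are forkhead transcription factor genes of kidney, eye, vessels and gut. The other HOX windows had 230 calls in H9, 254 at day 14 and 150 in naive cells on chromosome 12, 124, 88 and 61 on chromosome 2, and 150, 149 and 88 on chromosome 7. In each of the 8 windows, chosen partly for their low naive counts, day 14 had more calls than naive cells. In the HOXC window it had more than H9.

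Windows of net loss had smaller net changes, and the 8 with the largest net loss held only 19 to 29 baits each. The window at 42 to 43 Mb of chromosome 12, with GXYLT1 and PRICKLE1, had 18 gained and 37 lost contacts, and 19 calls in H9, 31 at day 14 and 38 in naive cells. The NBPF1 window on chromosome 1 had 30, 62 and 48 calls, and the window with DYRK4 and KCNA1 on chromosome 12 had 37, 62 and 53. The window with CDKN1B, a cell cycle inhibitor gene, and GPR19 had 27, 21 and 40 calls, and that with POMC and DNMT3A, a DNA methyltransferase gene, had 6, 11 and 19. Day 14 was below naive cells in the windows of GXYLT1, CDKN1B and DNMT3A and above them in those of NBPF1 and DYRK4. It was also below them in the rest of the 8, the windows of CDKN3 (41 calls against 46), EVL (15 against 28) and CHP2 (18 against 24). With windows shifted by 500 kb, the HOXC window led the gains (273 gained and 157 lost), that of PAX2 (129 and 62) was among the leading 8, and a window with KCNA5 and NTF3 led the losses (50 and 72).

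**Figure D5:**
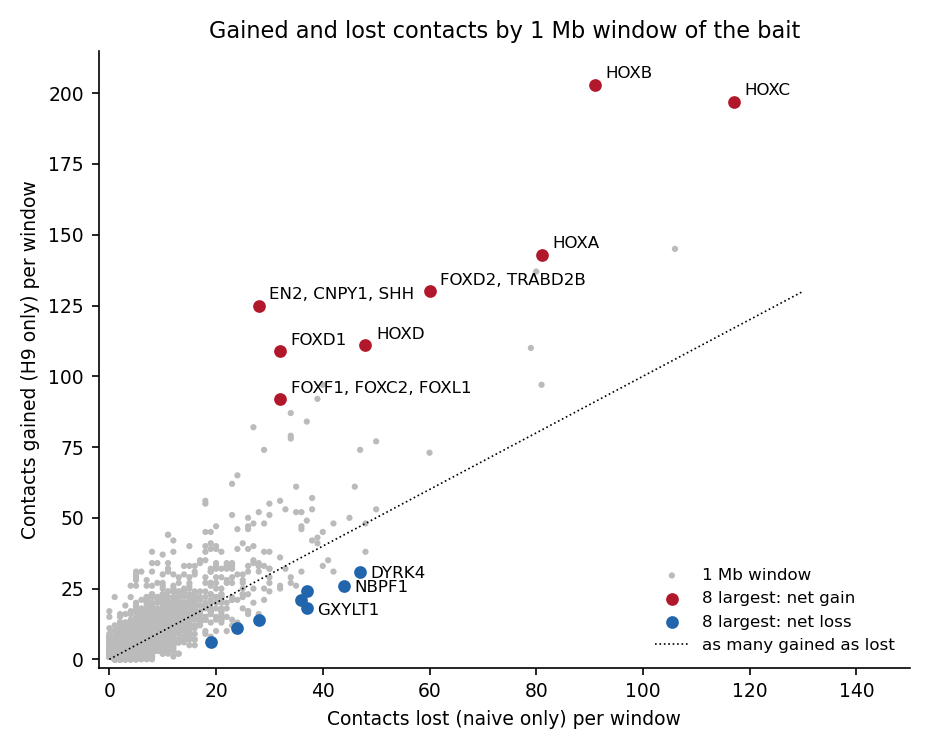
Gained (vertical axis) against lost contacts (horizontal axis) per window of 1 Mb by position of the bait, 1 point per window, with the line of equal numbers and the 8 windows of largest net gain and 8 of largest net loss coloured and the leading ones named. Net gains reach 203 gained against 91 lost at HOXB, while no net loss exceeds 19 contacts, at GXYLT1 (18 gained, 37 lost).

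Among single contacts at 0 in naive cells, 4 of the 8 strongest in H9 spanned over 1 Mb and are given with the other observations. Among the remaining 4, a bait 10.0 kb from FOXA2, an endoderm and floor plate factor, reached an end within PAX1 at 861 kb with scores of 19.80 in H9, 0 at day 14 and 0 in naive cells. A bait 42.7 kb from TMEM161B reached an end 44.2 kb from MEF2C, a muscle and neuronal factor. This contact, at 528 kb, had 18.32 in H9, 0.48 at day 14 and 0 in naive cells. A bait at MARCKS had 16.65 in H9, 0 at day 14 and 0 in naive cells at 550 kb, and 1 near FBXO8 reached SCRG1 at 693 kb with 15.95, 0 and 0. None of these 4 was called at day 14.

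Gained contacts that day 14 shared were looked up after the values had been seen. A bait 4.1 kb from ISL1 had 14.67 in H9, 5.00 at day 14 and 0 in naive cells at 429 kb. NKX2-4 and NKX2-2, neighbouring homeobox genes, were joined at 115 kb with 11.74 in H9, 5.83 at day 14 and 0 in naive cells. A bait 2.7 kb from TBX3 reached an end 33.4 kb from TBX5 at 243 kb with 11.07 in H9, 8.01 at day 14 and 0 in naive cells. A bait at SGPP2 reached an end at 515 kb with 11.04, 8.87 and 0. That end held no gene, and the nearest, PAX3, was 150.3 kb away from it. A contact between 2 baits, 42.4 kb from OSTM1 and 1.4 kb from NR2E1, had 12.03 in H9, 11.97 at day 14 and 0 in naive cells at 46 kb.

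Contacts at 0 in H9 and strongest in naive cells lay at varied genes. TBR1, a cortical T-box factor, reached an end within TANK at 201 kb with 0 in H9, 0 at day 14 and 13.05 in naive cells. A bait in HES7, a Notch target of somite formation, reached NAA38 at 250 kb with 0, 0 and 13.03. A bait near CSRP1 reached NAV1 at 224 kb with 0, 0 and 12.65, and a bait in LHX9, a LIM homeobox gene, reached DENND1B at 381 kb with 0, 0 and 12.44. MERTK had 0 in H9, 1.55 at day 14 and 12.22 in naive cells at 132 kb. The strongest of the 8, between 2 baits 345 kb apart on chromosome 20, had 0 in H9, 1.95 at day 14 and 14.09 in naive cells. Day 14 was below the threshold in all 8.

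The 8 kept contacts with the highest lower of both scores all joined fragments on both sides of the centromere of chromosome 16. Kept contacts up to 1 Mb were chosen after the values had been seen. A bait 2.4 kb from HOXC8 reached an end near SMUG1 at 194 kb with 20.25 in H9, 5.50 at day 14 and 25.88 in naive cells, and an end near CBX5 at 204 kb with 18.98 in H9, 13.63 at day 14 and 17.72 in naive cells. A bait near FBLN2 reached WNT7A at 226 kb with 18.75, 11.77 and 15.16. A bait in GATA4, a heart and endoderm factor, reached BLK at 179 kb with 25.42, 17.63 and 14.59. All 4 were called in the 3 conditions, with day 14 below H9 in each.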

How the data were processed

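Each of the 10 conditions had 2 capture Hi-C libraries. The deposited matrix gave CHiCAGO interaction scores, 1 column per condition with both libraries pooled per the labels, and a distance in bp. Scores were used as deposited. Coordinates were on GRCh38 per the submitters' processing notes. For the aligner and the version of the caller, nothing is given in the sources used here. The read depth per library was not known. Every listed contact scored 5 or more in at least 1 condition. Numbers of contacts are listings, so a pair of baits may be listed from each bait, except inside HOX clusters, where each pair was counted once. With 1 pooled column per condition no test was run, and Wilson 95% intervals cover counting error only.

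Genes came from the RefSeq table on GRCh38.p14 (19958 protein-coding genes after 94 readthrough genes were left out). A gene was linked where either annotated end lay within 1 kb of a fragment, since that table gave no strand. Start sites by strand were known for 15767 genes and were used for the printed promoters and as an alternative added after seeing the data. No genome sequence was used here, so fragments were not placed in exons or introns. The contact sets, the 14 gene lists and the rules were chosen with earlier results of these data known. The text names the 12 genes with the largest net gain and the 12 with the largest net loss, the 2 genes per list with the largest change, 8 gained, 8 lost and 8 kept contacts, and 8 windows of 1 Mb in each direction. Other genes of the lists and windows (such as SIX6, NKX2-1, EN2 and SHH) and the contacts marked so in the text were added after their values were seen. The text gives part of these, and some items are not reported here. The classes and the counts per gene were tested on simulated data, with 0 errors in 20000 contacts and 200 genes. The 13 alternatives covered the threshold, the margin, equal calls per condition, quantile normalisation, a tolerance of 10 kb, distance, baits and gene links. Computations ran in Python 3.11.15 (scipy 1.17.1, numpy 2.4.6, pandas 2.3.3) and figures in matplotlib 3.10.9.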

Additional observations from a re-analysis of the deposited data

Results flagged for a closer look

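For NBPF1, PRDM14 and the mean over the neural crest list, H9 and day 14 cells departed from naive cells in opposite directions. NBPF1 had 13 contacts in H9, 30 at day 14 and 21 in naive cells, a net change of -8.0 in H9 and 9 at day 14. PRDM14, a regulator of pluripotency and germ cells, had 3 contacts in H9, 0 at day 14 and 1 in naive cells, a net change of 2.0 in H9 and -1 at day 14. Neural crest genes had a mean of 2.59 contacts in H9, 1.29 at day 14 and 1.47 in naive cells, a change of 1.12 in H9. By number of genes the directions were alike, with more contacts than naive cells for 8 and fewer for 3 in H9, and more for 6 and fewer for 4 at day 14. The day 14 mean was lowered most by SOX10 and SNAI2 (-4 each), and by start site the H9 change was -0.286. These differences were not tested, since each condition had 1 pooled column and both comparisons used the same naive column.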

How the results depend on the processing

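The mean change over HOX genes and the gained over lost ratio at HOX clusters kept their direction under each of the 13 alternatives that gave a value for them. At a score of 3 or more, kept contacts numbered 8495, and day 14 called 21.4% of gained, 19.0% of lost and 40.5% of kept contacts. At 10 or more there were 558 gained, 283 lost and 52 kept contacts, with 6.81%, 8.48% and 53.8% called at day 14, and 169 genes had more and 74 fewer contacts in H9. At that threshold few contacts were left per gene, and the net change of HOXB9, HOXA3 and OTP was 0. With the other condition required to score under 1, there were 12337 gained and 8976 lost contacts, with 3.24% and 2.17% called at day 14. At equal numbers of 18272 calls per condition day 14 called 6.44% of gained contacts, and on quantile-normalised scores 5.48% of lost ones. With other ends within 10 kb taken as shared, 3593 contacts were kept, and day 14 called 13.8% of gained, 9.80% of lost and 49.3% of kept contacts. Counting genes at the other end only gave 2037 genes with more and 1254 with fewer contacts, and by start site 1766 and 1181, over fewer genes.

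Without 6 baits of 20 or more contacts the net change of FZD7 was 0. The mean change turned for proneural bHLH genes (-0.0625 at a score of 10 and on quantile-normalised scores) and for naive pluripotency genes (-0.167 at a score of 10, at equal numbers and on quantile-normalised scores, -0.667 by start site). By start site it also turned for neural crest (-0.286) and Polycomb genes (-0.0909). Net changes turned for EPOP (-1, quantile-normalised scores), for ATOH1 (-3), EEF2 (4) and PRDM14 (-3) with a link of 5 kb, and for ACTR1A (1), CBX2 (-1), NBPF1 (1) and SLC35A3 (1) at the other end only. The cause was not tested beyond what each setting removes. Leaving out a replicate was not run, because each column pools both libraries. No paired analysis was possible because the columns carry no replicate.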

Other observations

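Chromosome X had 562 gained, 229 lost and 8 kept contacts, or 2.45 gained per lost contact, against 1.32 over all chromosomes. For day 14 against naive cells the X ratio was 1.08, with 247 gained and 228 lost, against 1.13 over all. Day 14 and naive cells are of the HNES1 line and H9 is another line. A difference between lines on X therefore cannot be told apart from one between states. At equal numbers of calls the H9 ratio on X was 1.81, and on quantile-normalised scores 1.88. Chromosome 19 had 2.00 gained per lost contact in H9 and 1.61 at day 14, and chromosome 12 had 1.09 in H9 and 1.20 at day 14.

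Contacts over 1 Mb were few but included the strongest scores. H9 gained 92, lost 65 and kept 21 of them. Chromosome 16 held 15 gained, 11 lost and 16 kept ones, and day 14 called 15 of those kept. Chromosome 1 held 7 gained, 11 lost and 4 kept, and chromosome 20 held 9, 0 and 1. The strongest gained contact at 0 in naive cells joined chr16:34595031-34595444 to chr16:46390539-46390693 with scores of 64.89 in H9 and 27.76 at day 14. From the same bait, ends on either side, at chr16:46389224-46389869 and chr16:46390694-46391459, were kept and scored 137.84 and 78.41 in naive cells. A bait at chr1:16760703-16761190 reached chr1:234776117-234781218, on the other arm, with 28.64 in H9, 7.54 at day 14 and 0 in naive cells. A bait at NBPF1 reached the same end with 22.64, 39.84 and 0. The adjoining NBPF1 bait, at chr1:16612691-16613430, reached it with 2.39 in H9, 22.20 at day 14 and 19.30 in naive cells. At these loci a naive score of 0 on a single fragment did not hold for its neighbours. Among contacts over 1 Mb, 11 scores in H9 or naive cells lay between 27.75 and 28.64, so the order of such scores carries little information.

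Among genes not yet described, TLX1, a homeobox gene needed for the spleen, had 8 contacts in H9, 1 at day 14 and 0 in naive cells. PDX1, of pancreas, had 7 in H9, 7 at day 14 and 0 in naive cells. CENPF, a kinetochore gene, had 0 in H9, 0 at day 14 and 4 in naive cells. These genes were picked after their values were seen.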
